A study of Meleagris gallopavo with 8 samples.

Results

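The genes described here encode the pyruvate dehydrogenase complex and enzymes that switch it on and off: the kinases PDK4, PDK1 and PDK3, the phosphatase PDP2, and the complex components PDHB, DLAT, DLD and PDHX. They were chosen by name, without regard to case, in the transcript annotation that the authors deposited for turkey breast muscle. A gene counted when a transcript with its name was an exact match to a reference transcript, was contained in one, or shared a splice junction with one (called a variant below). All 8 genes met this rule, of 7360 gene names that met it in all, and their 8 loci were among 23108 loci.

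The series holds 8 samples of pectoralis major, the breast muscle, from turkeys of the random-bred line RBC2 slaughtered at 22 weeks of age, and the labels name no treatment, allele or agent. Samples were 4 of normal meat, with high marinade uptake at 24 h after slaughter, and 4 of PSE meat (pale, soft and exudative, a defect in which meat holds water poorly), with low uptake. The 2 kinds therefore differ by how the meat behaved, not by an assigned treatment, and 43 birds were raised. Whether each sample came from a separate bird is not stated in the sources used here.

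The deposited table of counts per locus has 8 columns without names, and neither the labels nor the files tie a column to a sample. The columns are numbered below by their place in the table, which assigns none of them to normal or PSE meat. No comparison of PSE with normal meat was made. No mean over the columns is given, and no test over them other than an outlier flag. Column totals lay between 7389830 and 12066951 counts, and levels are given as CPM, counts scaled to a column total of 1e+06. Pearson's r of log2(CPM + 1) between pairs of columns lay between 0.931 and 0.980 over the 9167 loci with a median count of at least 50. Of 20 skeletal muscle markers listed, 10 were found, with a summed level between 29720 and 37297 CPM, TNNI2, the fast inhibitory troponin, alone giving 10958 to 13381. None of the 10 was at 0 in every column. In bulk muscle, fewer cells of a type and less RNA per cell cannot be told apart.

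The pyruvate dehydrogenase complex sits in the mitochondrial matrix and turns pyruvate, the product of glycolysis, into acetyl-CoA, the fuel of the tricarboxylic acid cycle. PDK kinases phosphorylate its first enzyme and stop it, and PDP phosphatases remove the phosphate and restart it. In skeletal muscle of mammals PDK4 is known as the kinase whose message is raised by fasting, so that glucose is spared and fat is burned.

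The 8 genes had 12 transcripts on 7 chromosomes: 3 exact matches, 3 contained transcripts and 6 variants. Their names also stood on 13 transcripts of other classes, to which the rule does not apply. PDK3, PDHB and DLD had more than 1 transcript and the other 5 genes had 1 each, while the median gene name that met the rule had 2 and 44.0% of them had 1. The assembly credited 8 of the 12 transcripts to normal 1, 2 to normal 2, 1 to normal 3 and 1 to PSE 1. Normal 1 was also credited with 48.8% of all transcripts in the annotation. The annotation writes these sample names with the letter O where the labels have a zero, and they were read as the same samples.

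The PDK4 transcript ran over chromosome 6:24183113-24192720 on the minus strand, in the coordinates of the deposited annotation, whose genome build the sources used here do not state. It had 11 exons and 3689 exonic bases, was a variant, and its last exon of 2539 bases made up 68.8% of it. PDK3, a kinase of the same family, lay on chromosome 1, minus strand, in 2 variants. The first, at 125269702-125306545, had 10 exons and 6250 bases. The second, at 125269330-125306545, had 9 exons and 6545 bases, lacked the 77-base exon 6 of the first (125282208-125282284), and had a last exon of 5648 instead of 5276 bases. PDK1, the kinase known in mammals as a target of hypoxia signalling, lay at 7:18352266-18356111 on the minus strand as an exact match of 6 exons and only 607 bases. Its last exon was 77 bases long, against last exons of 2539 bases in PDK4 and 5276 or 5648 in PDK3. An unnamed locus with no class stood on the same strand 4451 bases further downstream, with a median count of 10.

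The kinases shared a run of 5 consecutive exons of the same lengths, which were 72, 185, 90, 78 and 77 bases, or 502 bases in all. In PDK4 these were exons 3 to 7, and in PDK1 and in the 10-exon form of PDK3 exons 2 to 6. Of 11367 transcripts in the annotation with at least 5 exons, 3 held this run, 1 from each kinase. The 77-base exon absent from the 9-exon PDK3 form is the last of the run. Among PDHB, DLAT, DLD and PDHX, no pair shared more than 1 consecutive exon length.

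PDP2, a phosphatase that reactivates the complex, was an exact match of 1 exon and 2808 bases at 13:11243880-11246687 on the minus strand. PDHB, the beta subunit of the first enzyme (E1), lay on chromosome 14, minus strand, in 3 forms: a variant of 7 exons and 2750 bases (12399179-12404312), a contained transcript of 8 exons and 2665 bases (12399169-12404297), and a contained fragment of 4 exons and 409 bases (12403665-12404308). The 7-exon form kept an 80-base intron (12403994-12404073), which joined exons of 36 and 63 bases into 1 of 179 bases. DLAT, the acetyltransferase core (E2), was an exact match of 12 exons and 4250 bases at 26:6592900-6601029 on the minus strand, with 65.7% of it in its last exon. Its locus also held a transcript of C11orf57 with no class, which made up 19.2% of the exon bases of the locus, so the counts given for DLAT include any reads of that transcript.

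DLD, the dihydrolipoyl dehydrogenase (E3) that the complex shares with other 2-oxoacid dehydrogenases, lay on chromosome 1, plus strand, in 2 variants of 12 exons each, at 14864504-14876432 and 14864504-14876405. They differed in exon 4, of 95 and 101 bases, and in the last exon, of 1018 and 991 bases. PDHX, the protein that binds E3 to the core, was a contained transcript of 10 exons and 7384 bases at 5:19130617-19165518 on the plus strand, with 85% of it in the last exon. The exon map shows that long last exons recur in most of the genes and that PDK1 stands out as the short model.

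**Figure D1:**
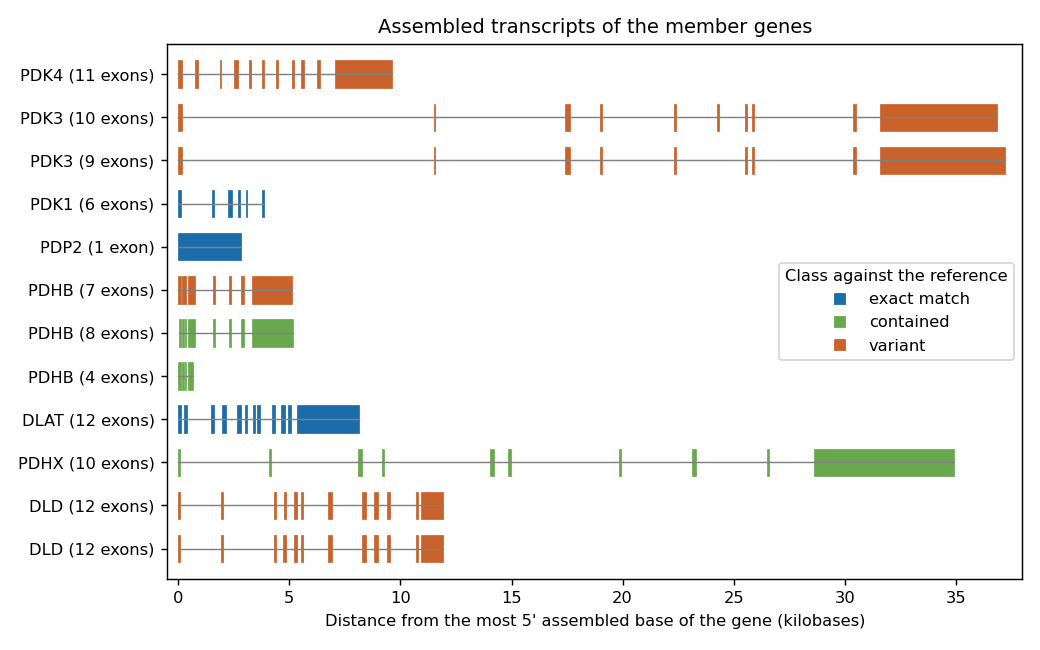
Exon map of the 12 transcripts of the 8 genes, drawn to scale with the 5′ end on the left, as distance in kilobases from the first assembled base of the gene; boxes are exons, lines are introns, and colour gives the class against the reference. The last exons of PDK4, PDK3, DLAT and PDHX are long, while the PDK1 model holds 607 bases over 6 exons.

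PDK4 varied most of the 8 genes. Its level in columns 1 to 8 was 223, 574, 672, 1977, 70.4, 107, 32.2 and 37.6 CPM, from 1835, 6922, 6652, 16745, 572, 860, 265 and 278 counts. Column 4 was highest, 2.94 times the next column, and columns 7 and 8 were lowest. The range from column 7 to column 4 was 61.4-fold (exact 95% interval 54.4 to 69.6, which covers counting error only, as do all intervals here). Of 14461 loci with a median count of at least 10, 33 had a range at least as wide, PDK4 included, 17 of them with a column at 0. Among the 1060 loci with a median count of at least 1000, no other locus had a range as wide. Without column 4 the range was 20.9-fold and without column 7 it was 52.6-fold, so column 4 alone moved it by more than 1.5 times.

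PDK3 stayed close to one level. It had 312, 335, 368, 357, 293, 271, 316 and 273 CPM in columns 1 to 8, a 1.36-fold range (interval 1.29 to 1.43), the narrowest of the 8 genes. Column 3 was highest and column 6 lowest, but the intervals of columns 3 and 4 overlapped, as did those of columns 6 and 8. PDK1 was counted too rarely to order its columns: it had 19, 19, 33, 21, 18, 20, 11 and 19 counts, or 2.31, 1.57, 3.33, 2.48, 2.22, 2.49, 1.34 and 2.57 CPM. Its range of 2.49-fold had an interval of 1.23 to 5.47, and the intervals of its highest column (2.29 to 4.68 CPM) and lowest column (0.667 to 2.39) overlapped. The phosphatase PDP2 had 9.36, 9.20, 9.59, 5.43, 8.00, 7.97, 7.17 and 5.41 CPM, a 1.77-fold range (interval 1.21 to 2.63). It was lowest in columns 4 and 8, of which column 4 was the highest for PDK4 and column 8 one of the lowest.

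The ranges of the components of the complex were far narrower than that of PDK4. PDHB had 148, 110, 161, 126, 143, 125, 162 and 118 CPM in columns 1 to 8, a 1.47-fold range (interval 1.36 to 1.59). It was lowest in column 2 and highest in column 7, but the intervals of columns 3 and 7 overlapped. DLAT had 159, 110, 164, 147, 165, 128, 178 and 137 CPM, a 1.61-fold range (interval 1.497 to 1.74), with the same lowest and highest columns as PDHB. DLD had 229, 193, 251, 217, 205, 180, 230 and 163 CPM, a 1.55-fold range (interval 1.44 to 1.66). Column 3 was its highest and column 8 its lowest. PDHX had 118, 106, 154, 120, 99.0, 123, 111 and 106 CPM, a 1.55-fold range (interval 1.42 to 1.69) in which column 3 stood above the others. The ends of each range were picked as the extremes of 8 columns, and the intervals, all above 1, say nothing about the spread between birds. Loci outside the rule that carry the names PDP2, PDHB or DLD, some on the opposite strand, were not added to these counts.

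**Figure D2:**
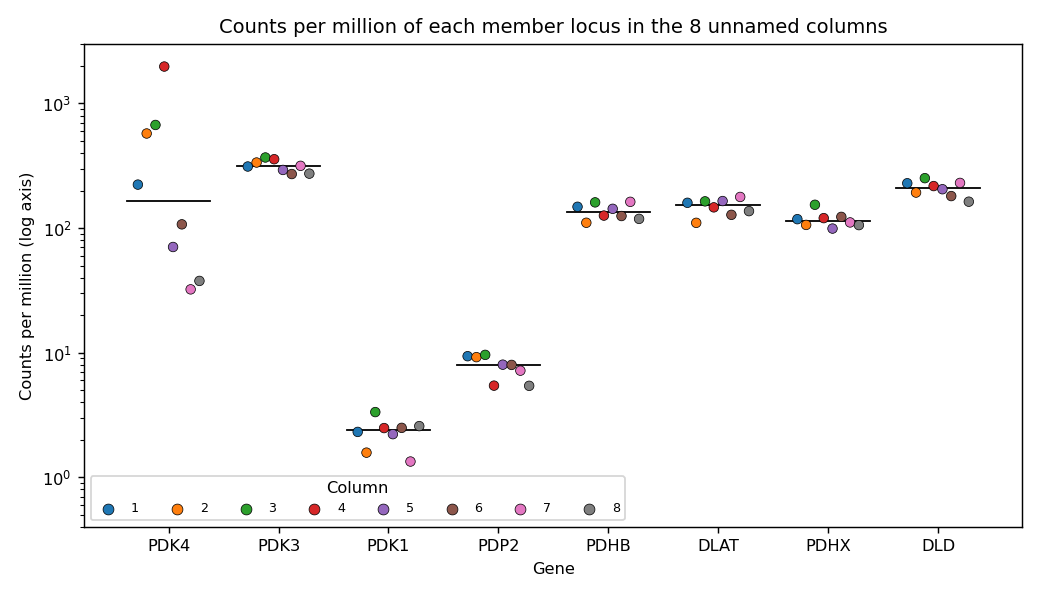
CPM of each gene (log axis), with 1 point for each of the 8 unnamed columns and a bar at their median; a column's number ties it to no kind of meat. PDK4 spans 32.2 to 1977 while PDK3 stays between 271 and 368.

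By a range of at least 2-fold, 2 of the 8 genes were past the mark, PDK4 and PDK1, or 25%, against 47.0% of the 14461 loci with a median count of at least 10. The share among all loci depended on how well a locus was counted. It was 78.4% at median counts from 10 to under 50, where PDK1 lay, and 37.4% from 50 to under 200, where PDP2 lay. It was 20.8% from 200 to under 1000, where PDHX lay, and 18.5% at 1000 and more, where the other 5 genes lay. The median range of the best-counted loci was 1.49-fold. PDHB, DLAT, DLD and PDHX, at 1.47 to 1.61-fold, were thus near the middle of loci counted as well as they were, and PDK4 was far outside.

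**Figure D3:**
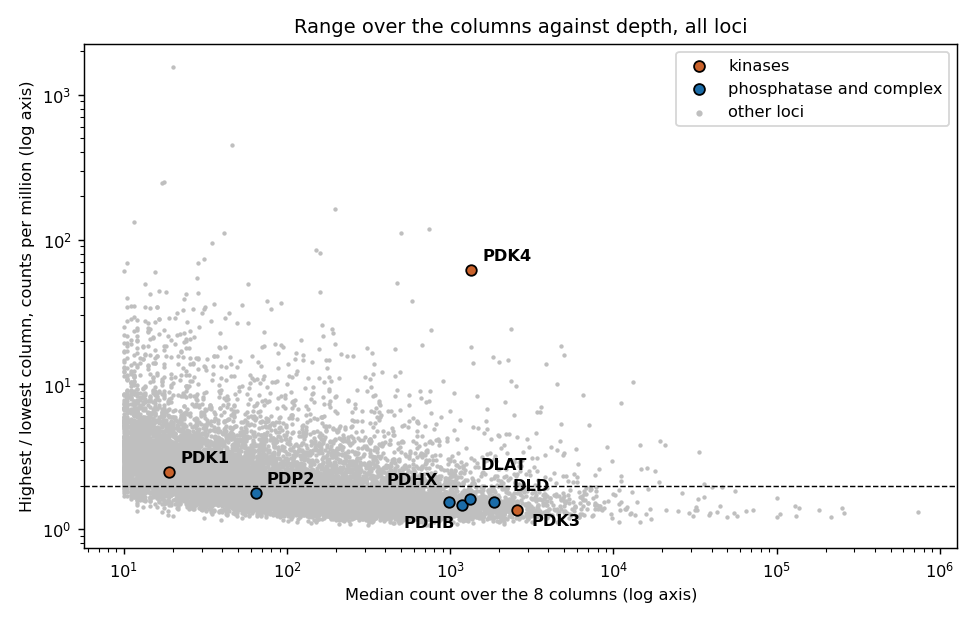
Range between the highest and the lowest column (fold of CPM, log axis) against median count (log axis) for 14444 loci in grey and the 8 genes in colour, with a dashed line at 2-fold; 17 loci with a column at 0 are not shown. PDK4 lies at 61.4-fold, above every other locus with a median count of at least 1000, and the components of the complex lie below the line.

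To compare levels between genes, CPM values were divided by the exonic length in kilobases. DLD had the highest median level, 89.1 CPM per kilobase, followed by PDHB (48.6), PDK3 (47.4), PDK4 (44.7), DLAT (35.99), PDHX (15.5), PDK1 (3.95) and PDP2 (2.84). DLD was above PDHB, DLAT above PDHX, and PDHX above PDK1 in all 8 columns, and none of those ranges overlapped. PDHB was above PDK3 in 6 columns, PDK3 above PDK4 in 4, PDK4 above DLAT in 4, and PDK1 above PDP2 in 6, so these neighbours were not separated. The PDK1 level rests on a model of 607 bases and few counts. PDHX was the component with the lowest level, in a model whose last exon is most of its length.

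The summed level of the 3 kinases followed PDK4. In columns 1 to 8 it was 111, 209, 243, 594, 66.9, 74.1, 58.6 and 55.7 CPM per kilobase, and PDK4 gave 54.3, 74.5, 74.9, 90.2, 28.5, 39.2, 14.9 and 18.3% of it. PDK4 stood above PDK3 in columns 1, 2, 3 and 4 and below it in the other 4. The ratio of the PDK4 to the PDK3 level ran from 0.183 in column 7 to 9.95 in column 4, and without column 4 its highest value was 3.27, in column 3.

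Over the same columns the summed level of PDHB, DLAT, DLD and PDHX was 204, 162, 224, 188, 190, 168, 213 and 158 CPM per kilobase, a 1.42-fold range. The ratio of kinase to complex level was therefore 0.547, 1.29, 1.09, 3.16, 0.352, 0.441, 0.275 and 0.352. It passed 1 in columns 2, 3 and 4, and without column 4 its highest value was 1.29. A value of 1 marks no balance, since sums over unlike numbers of genes are compared. Without PDK4 the ratio lay between 0.234 and 0.330 in every column. The ratio of the PDK4 to the PDP2 level, 1 kinase against 1 phosphatase, was 18.1, 47.5, 53.3, 277, 6.70, 10.2, 3.42 and 5.29 in columns 1 to 8. It was lowest in column 7 and highest in column 4, and without column 4 its highest value was 53.3. PDP2 had only 46 counts in column 4, with an interval of 3.98 to 7.25 CPM. PDK2, PDP1 and PDHA1 had no transcript meeting the rule under these symbols, so none of these ratios includes them. These are ratios of messages, and protein amounts and phosphorylation were not measured.

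**Figure D4:**
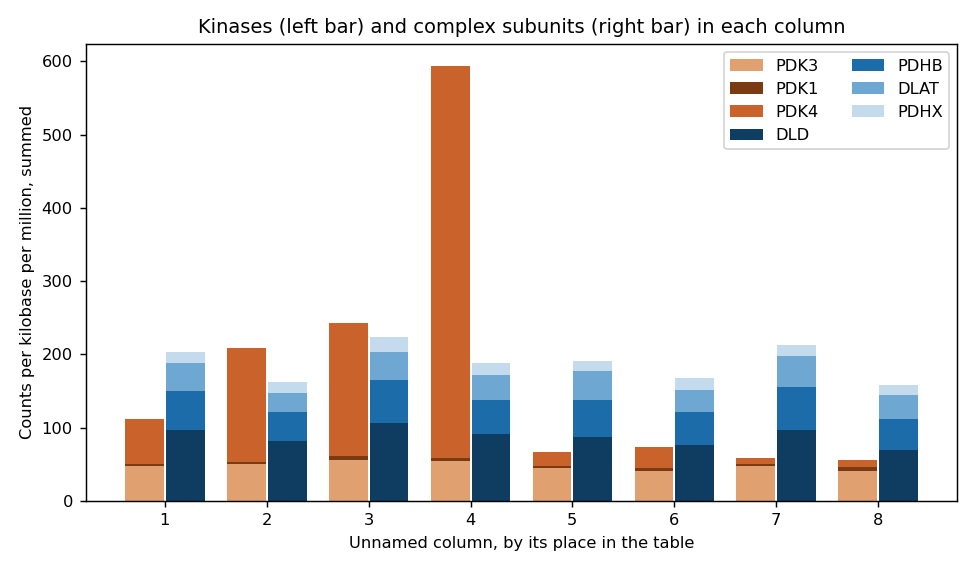
Stacked bars of the summed level of PDK3, PDK1 and PDK4 (left bar) and of DLD, PDHB, DLAT and PDHX (right bar) in each of the 8 unnamed columns, in CPM per kilobase on an axis from 0. The kinase sum runs from 55.7 to 594, mostly through PDK4, while the complex sum stays between 158 and 224.

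Within the complex PDHB and DLAT kept nearly one proportion. The ratio of their levels lay between 1.32 and 1.54, a 1.17-fold range, the narrowest of the 6 pairs of components. The widest was that of DLAT over PDHX, at 1.60-fold. Over the 8 columns Pearson's r of log2(CPM + 1) was 0.92 between PDHB and DLAT (Spearman 0.90) and 0.80 between PDHB and DLD (Spearman 0.88). PDK4 had an r of 0.79 with PDK3 (Spearman 0.67), −0.19 with PDHB, −0.26 with DLAT, 0.39 with DLD and 0.49 with PDHX. All 28 pairs were computed. These correlations are descriptions of 8 columns that share their library and scale within a column, and they are given without p-values.

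The 5 named loci most like PDK4 by Pearson's r, of 6649 with a median count of at least 20, were FBXO32 (0.98), C10orf26 (0.98), SLC43A2 (0.98), KIAA0319L (0.97) and RAB3GAP1 (0.96). FBXO32, a ubiquitin ligase component known in mammals for its role in muscle wasting, had 353, 499, 479, 952, 83.5, 134, 66.9 and 70.9 CPM in columns 1 to 8. It was highest in column 4 and lowest in column 7, as PDK4 was, and its range was 14.2-fold. Without those 2 columns, the farthest from the middle for PDK4, r was 0.97. SLC43A2, an amino acid transporter, had a range of 11.5-fold, whereas KIAA0319L and RAB3GAP1 spanned only 1.46 and 1.41-fold. An r above 0.9 with PDK4 was found for 68 loci and one below −0.9 for 69.

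For PDHB the 5 most alike were UQCRC1 (r 0.96), ATP5J (0.94), GLMN (0.94), NAPEPLD (0.93) and LRRC57 (0.93). UQCRC1, a core protein of respiratory complex III, had 213 to 301 CPM, and ATP5J, a subunit of ATP synthase, had 97.0 to 140. An r above 0.9 with PDHB was found for 18 loci.

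Of 33 other symbols listed for the complex and for pyruvate handling, 15 were found and 14 had a median count of at least 10. PDHA1, the alpha subunit of E1 that the kinases phosphorylate, and PDK2 and PDP1 had no transcript meeting the rule under these symbols and were not analysed here. Of the 14, 3 (21.4%, against 47.0% of all loci tested) spanned at least 2-fold. All 14 had a median count of at least 50, where the share of all loci was 28.8%. The 3 were ACLY, which makes acetyl-CoA from citrate outside mitochondria (2.12-fold), BCKDHB of the branched-chain dehydrogenase (2.05-fold), and SLC16A3, a lactate exporter (2.61-fold). OGDH and DLST, of the 2-oxoglutarate dehydrogenase that also uses DLD, spanned 1.29 and 1.24-fold, with OGDH between 389 and 502 CPM. BRP44L and BRP44, older symbols of the mitochondrial pyruvate carrier genes, spanned 1.53 and 1.47-fold, and CS, citrate synthase, 1.51-fold. The monocarboxylate transporter SLC16A1 was lowest in column 4 (127 CPM) and highest in column 5 (229.5), with an r of −0.86 with PDK4.

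Of 16 symbols listed as regulators of PDK4 transcription in mammals, 11 were found. Of these, 7 (63.6%) spanned at least 2-fold and the median range was 2.12-fold, against 47.0% and 1.94-fold over all loci tested. PPARA and PPARGC1A had medians of 34.5 and 20 counts, a depth at which 78.4% of all loci spanned 2-fold. The others found had medians of at least 50, where 28.8% did so. PPARD, a nuclear receptor for fatty acids, ran from 9.07 CPM in column 8 to 23.1 in column 4 (r 0.86 with PDK4). PPARA, a related receptor, ran from 2.79 in column 7 to 7.44 in column 4 (r 0.84) on a median of 34.5 counts. FOXO1, a transcription factor held in check by insulin signalling, spanned 2.12-fold with an r of 0.41. Of the others found, INSR (0.83), PPARGC1A (0.29) and IRS1 (0.08) had a positive r with PDK4. It was negative for NR3C1 (−0.61, range 2.03-fold), HIF1A (−0.47), RXRA (−0.25), PPARGC1B (−0.18) and ESRRG (−0.11), so the list did not move one way. The HIF1A locus also carries the name SNAPC1, so its counts include any reads of that gene. Of 14 listed genes of fat use that often move with PDK4, 9 were found. Of these, 3 (33.3%, against 47.0% of all loci) spanned at least 2-fold: FABP3, CD36 and LPL, which bind, take up and release fatty acids. All 9 had a median count of at least 50, where the share of all loci was 28.8%. FABP3 was highest in column 4 (173 CPM) and lowest in column 1 (57.4), with an r of 0.51 with PDK4, and CPT1A, the gate of fatty acid entry into mitochondria, had an r of −0.63. The widest range in these 2 lists was the 3.02-fold of FABP3.

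Markers of other cell types also differed between columns. The fibroblast list, with 4 of 5 markers found and none at 0, had a summed level of 811, 1672, 1051, 708, 2168, 1989, 7102 and 2723 CPM in columns 1 to 8. It was lowest in column 4, where PDK4 was highest, and highest in column 7, where PDK4 was lowest, and its genes COL1A2, COL3A1, DCN and LUM had r values between −0.88 and −0.76 with PDK4. Endothelial markers (4 of 5 found) summed to 100.2 to 187, macrophage and leukocyte markers (6 of 6) to 96.1 to 216, and fat cell markers (3 of 5) to 64.2 to 172 CPM. The endothelial and the leukocyte sums were also highest in column 7. Every gene found of these 2 lists had a negative r with PDK4. It ran from −0.76 (KDR) to −0.20 (CDH5) and from −0.71 (PTPRC) to −0.36 (CSF1R). Within the fat cell list the genes went different ways: r with PDK4 was −0.88 for ADIPOQ, lowest in column 3, and 0.43 for PLIN1 and 0.64 for CIDEC, both highest in column 4. The CIDEC value rests on a median of 11 counts, with only 0.122 CPM in column 1. Of the nerve list, PMP22 alone was found, at 18.8 to 42.6, and of the 7 red blood cell markers none was found. The summed skeletal muscle markers spanned 29720 to 37297 CPM, although 6 of the 10 spanned at least 2-fold (60%, against 47.0% of all loci). Of these, DES, TNNC1 and CKMT2 had a median count of at least 1000, where 18.5% of all loci did so. MB, MYL2 and PVALB had medians of 113, 669.5 and 12.5 counts. TNNC1, the slow troponin C, spanned 4.10-fold and PVALB 15.3-fold. Among the muscle markers r with PDK4 ran from −0.80 (TNNI2) to 0.63 (MB). The part of other cell types in the range of PDK4 was not tested.

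**Figure D5:**
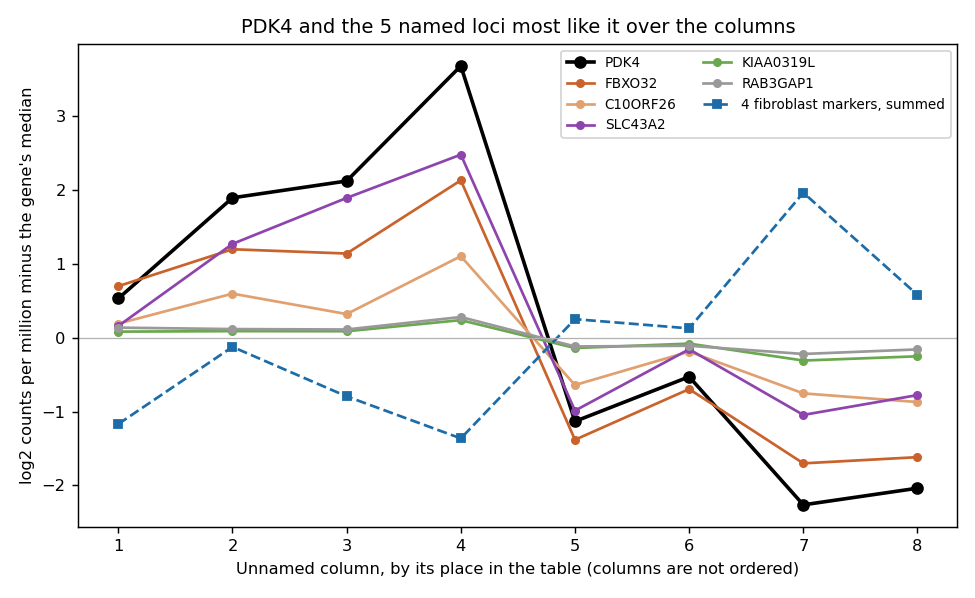
Log2 CPM minus the gene's median over the 8 unnamed columns, which have no order, for PDK4, the 5 named loci most like it and the sum of 4 fibroblast markers (dashed). FBXO32 and SLC43A2 span 14.2 and 11.5-fold along with PDK4, KIAA0319L and RAB3GAP1 under 1.5-fold, and the fibroblast sum is lowest in column 4 and highest in column 7.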

How the data were processed

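The authors deposited a merged transcript annotation and a table of counts per locus (whole numbers, 23108 loci by 8 columns without names). TopHat, Cufflinks, HTSeq and DESeq are named, per the submitters' processing notes, without versions. The genome build, strand protocol, read length and counting settings are not stated in the sources used here, so reads of opposite strands may not be separated. No column was tied to a sample (8 of 8 unnamed). The planned edgeR test of PSE against normal meat was therefore not made, and the columns were treated as unlabelled values rather than replicates.

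Transcript classes exact, contained and variant are class codes =, c and j of the annotation. CPM is the count divided by the column total over all loci, times 1e+06. The level per kilobase used the union of exons of the 3 classes. A range is the highest over the lowest column, with an exact conditional binomial 95% interval, and single counts have exact Poisson intervals. Ranges were read against all loci with a median count of at least 10. Correlations used log2(value + 1). Python 3.11.15, pandas 2.3.3, NumPy 2.4.6, SciPy 1.17.1 and matplotlib 3.10.9 were used. The range and size factor code was tested on simulated counts, and the interval code was not. Each library was made from 10 µg of RNA (integrity number 8 or higher) and 2 libraries shared a lane, per the labels' protocols.

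All 8 genes, the pathway and marker lists, and the 5 most alike loci for PDK4 and PDHB are named by rule, with list members given as counts and a few examples picked after their values were seen. The genes and lists were chosen with earlier results of these data known. Symbols of 7 of the 8 genes, all but PDK3, also stood in a RefSeq table of assembly Turkey_5.1, used for names only. No sequence is printed, since none was at hand. Alternatives were size factors, other totals, lengths, thresholds and leaving out each column.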

Additional observations from a re-analysis of the deposited data

Results flagged for a closer look

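The PDK4 level of 1977 CPM in column 4 stood apart from the other 7 columns: its gap to the next column was 0.671 of the whole range of the 8 values, on the linear scale. The PDHX level of 154 CPM in column 3 also stood apart, with a gap of 0.564 of its range. With size factors in place of totals, PDHX was 147.5 in column 3, with column 6 next at 125.6 and column 5 lowest at 95.3. Its gap was then a smaller share of the range, and no flag with size factors is given. By Dixon's 95% critical value, chance flags about 1 in 20 groups of normally distributed values. Whether CPM values are so distributed was not tested, and no flag on the log scale is given. For PDK4 the gap was 2.94-fold within a 61.4-fold range, a smaller share on the log scale than on the linear one. The 8 columns also mix both kinds of meat, so they are not replicates of one group. Column 4 also held the highest CPM of other listed genes, among them PPARD, FABP3, CS and MB. Further listed genes were highest in other columns, such as CD36 in column 3 and COL1A2 in column 7. Column 3 also held the highest CPM of DLD, PDK3, PDP2 and, on few counts, PDK1. With size factors DLD and PDK1 stayed highest in column 3. PDP2 was then highest in column 1 (9.62, against 9.21 in column 3) and PDK3 in column 4.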

How the results depend on the processing

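The PDK4 range was 65.3-fold with size factors and 60.4-fold without the 20 most abundant loci, and with each column left out in turn it lay between 20.9 and 61.4-fold. The number of the 8 genes past the mark was 6 at 1.5-fold and 1 at 3-fold. With each column left out it lay between 1 and 2, the lower value without column 3, where the PDK1 range was 1.92-fold. Of all loci, 28.8% were past 2-fold at a median count of at least 50. The lowest ratio of kinases to complex was 0.513 with raw counts in place of levels per kilobase. Counting exact matches only gave 3 transcripts and every class gave 25. The order of levels kept 28 of 28 pairs with both other lengths, and the DLAT level was 29.1 with all exons of its locus. Of the 5 loci most like PDK4, 2 were shared with a ranking by Spearman's rho and 3 with size factors. For PDHB these numbers were 2 and 5. With size factors PDHB was highest in column 3, PDP2 was highest in column 1, and PDK3 was highest in column 4 and lowest in column 8. The use of size factors for the share of all loci (46.4%) and leaving out columns for the number of genes were chosen after seeing the data.

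No paired analysis was possible because the count columns carry no names, so no column has a replicate number. The planned edgeR and DESeq2 fits, the fit without a filter and those leaving out a replicate were not run for the same reason. Depth limits PDK1 most, whose highest and lowest columns rest on 33 and 11 counts.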

Other observations

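Other loci carried names of these genes on transcripts outside the rule. A locus named PDP2 lay close to the gene (13:11242031-11243517, 1487 bases) with 208 counts over the 8 columns, 37.3% of those of PDP2 itself. A plus-strand locus named PDHB with no class lay 37693 bases from the assembled PDHB locus (14:12358752-12361475) with 6546 counts, 68.4% of those of PDHB. Another, 125982 bases from the assembled PDHB locus, had 149 counts. It was classed as inside a reference intron, with the same nearest reference transcript as the PDHB forms above. On the strand opposite to DLD, 7 loci covered 44.5% of its exon bases and held 133 counts, 0.902% of the 14745 of DLD. Opposite to PDHB, 2 loci covered 16.8% and held 30 counts, 0.313% of 9577. None of these counts is part of the levels given above.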
